A study of Mus musculus with 19 samples.

Results

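Foxj1, 3 RFX factors and 43 genes whose products build motile cilia or carry cargo along cilia were followed in mouse embryonic stem cells that lacked Trim71, Lin28a or both. The members were Foxj1, Rfx1, Rfx2, Rfx3 and every gene with a Cfap, Dnah, Dnaic, Dnai, Rsph, Tekt, Drc or Ift symbol and number. Of 68 such genes in a table of 21685, 47 were kept because their value reached log2 of 10 (3.32) in at least 4 of the 18 libraries used. All 4 genotypes contributed libraries at that level for each kept gene, and 44 of the 47 reached it in all 18 libraries. Members were thus chosen by symbol and selected on their level over all libraries, but Foxj1 gave the set its name because it was already known to be higher in the Trim71-null libraries of this series. Its own change is therefore described here without a test, and the question addressed is whether the other 46 genes moved with it.

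Foxj1 is a forkhead transcription factor that directs the gene programme of motile cilia in airway, oviduct and ependymal cells and in the embryonic node. RFX factors act beside it on genes shared by motile and non-motile cilia. The axoneme of a motile cilium carries dynein arms that generate force, radial spokes, the nexin-dynein regulatory complex and tektins, whereas intraflagellar transport (IFT) trains run in every kind of cilium. Trim71 is an RNA-binding ubiquitin ligase that represses mRNAs in stem cells, and Lin28a blocks the maturation of let-7 microRNAs.

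The cells were male C57BL/6 embryonic stem cells with floxed alleles (fl/fl) of both genes or with deletions, grown in serum with LIF and sorted for SSEA-1, a surface marker of the undifferentiated state, before RNA was taken. Genotypes are named with the Trim71 state first: WT-WT (Trim71 fl/fl, Lin28a fl/fl, n = 4), KO-WT (Trim71-/-, Lin28a fl/fl, n = 4), WT-KO (Trim71 fl/fl, Lin28a-/-, n = 5) and KO-KO (Trim71-/-, Lin28a-/-, n = 5). Trim71 was deleted with 500 nM 4-hydroxytamoxifen over 2 days, followed by at least 7 days of further culture. The same protocol entry stands for all libraries, so whether the Trim71-intact cells were treated too cannot be read from it. Clones 1 and E3 supplied all libraries with intact Lin28a, and clones 1-4 and C1 all Lin28a-null libraries, so Lin28a state and clone cannot be told apart. Values are log2 normalised expression from mRNA sequencing, and sequencing depth is unknown. The labels do not say that libraries were separate cultures, so p-values measure only the spread between these libraries.

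With Lin28a intact, the Trim71 transcript averaged 10.21 ± 0.12 (SD, n = 4) before and 8.89 ± 0.14 (SD, n = 4) after deletion. Without Lin28a it averaged 10.65 ± 0.20 (SD, n = 5) and 9.28 ± 0.18 (SD, n = 5), so transcript was lower but still detected in the deleted lines. Lin28a stood at 10.13 and 9.84 in WT-WT and KO-WT and at 8.47 and 8.28 in WT-KO and KO-KO. All 9 embryonic stem cell markers were expressed, from a mean of 9.30 for Zfp42 to 13.89 for Dppa5a, but not equally in all genotypes. Klf4 was higher after Trim71 loss by 0.46 with Lin28a intact (limma adjusted p = 0.00102) and by 0.38 without it (limma adjusted p = 0.000894). Utf1 passed as higher only with Lin28a intact, and Tdgf1 only without it. After Lin28a loss with Trim71 intact, all but Zfp42 and Tdgf1 passed as higher, among them Nanog by 0.86, beside 20.3% of all genes. KO-WT replicate 5 was left out, since each of its values lay within 1.5e-08 of the average of the 4 KO-WT libraries used. With Lin28a intact, the Trim71 difference of a gene followed the GC content of its transcript (Spearman 0.50 across 14724 genes, which are not independent replicates), and this correlation was 0.0148 without Lin28a. The median GC content was 51.0% for the 46 members with Foxj1 left out and 50.1% for all these genes.

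Promoters are shown for the 5 members that passed the test in the mean Trim71 effect, so that the letters can be read beside their values. They run from 250 bases before to 50 bases after the transcription start, 5′ to 3′ on the strand of the gene (RefSeq, GRCm38.p6). Capitals mark the forkhead core GTAAACA or the short RFX motif GTTGCC, in either orientation. The Cfap43 window is chr19:47837312-47837611, minus strand, with a forkhead core 55 bases before the start. The Ift172 window is chr5:31291065-31291364, minus strand, with a short RFX motif at the start, and the Ift27 window is chr15:78174032-78174331, minus strand, with one 9 bases before it. The Dnaic2 window is chr11:114727169-114727468, plus strand, with a short RFX motif in the other orientation 26 bases before the start. The Dnah12 window, chr14:26691304-26691603, plus strand, held none of the motifs searched.
Cfap43: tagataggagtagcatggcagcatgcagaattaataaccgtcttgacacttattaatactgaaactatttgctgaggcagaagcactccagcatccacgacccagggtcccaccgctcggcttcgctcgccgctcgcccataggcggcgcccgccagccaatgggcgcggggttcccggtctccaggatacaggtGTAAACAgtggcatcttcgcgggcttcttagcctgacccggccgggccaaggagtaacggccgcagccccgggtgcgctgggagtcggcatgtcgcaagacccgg
Ift172: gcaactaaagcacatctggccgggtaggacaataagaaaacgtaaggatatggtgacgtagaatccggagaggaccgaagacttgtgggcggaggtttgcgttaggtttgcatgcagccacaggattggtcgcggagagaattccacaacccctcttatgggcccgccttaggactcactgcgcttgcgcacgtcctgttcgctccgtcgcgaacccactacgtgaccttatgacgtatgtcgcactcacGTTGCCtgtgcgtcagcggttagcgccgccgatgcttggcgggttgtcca
Ift27: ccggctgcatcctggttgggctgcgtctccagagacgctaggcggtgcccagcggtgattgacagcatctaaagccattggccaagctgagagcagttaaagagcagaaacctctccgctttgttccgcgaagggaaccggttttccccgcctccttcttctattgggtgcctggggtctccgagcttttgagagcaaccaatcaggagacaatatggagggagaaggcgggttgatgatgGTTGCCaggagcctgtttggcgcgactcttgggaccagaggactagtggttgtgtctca
Dnaic2: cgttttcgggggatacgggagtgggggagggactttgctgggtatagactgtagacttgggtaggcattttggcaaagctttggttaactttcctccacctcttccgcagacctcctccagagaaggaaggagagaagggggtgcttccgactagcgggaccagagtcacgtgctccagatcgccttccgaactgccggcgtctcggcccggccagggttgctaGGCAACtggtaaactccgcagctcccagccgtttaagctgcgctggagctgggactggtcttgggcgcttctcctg
Dnah12: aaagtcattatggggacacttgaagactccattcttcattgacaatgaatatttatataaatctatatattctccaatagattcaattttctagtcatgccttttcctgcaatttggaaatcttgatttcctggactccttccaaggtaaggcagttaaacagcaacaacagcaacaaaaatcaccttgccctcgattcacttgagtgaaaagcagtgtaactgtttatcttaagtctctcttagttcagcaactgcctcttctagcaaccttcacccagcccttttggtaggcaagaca

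RefSeq promoters of 39 of the 47 members were matched by symbol, 45 windows in all. The entries for Cfap157, Cfap97, Foxj1, Ift122, Ift80, Ift81, Rsph1 and Rsph10b were missing. The forkhead core lay in 3 member windows (6.67%), those of Cfap20, Cfap43 and Dnah17, against 3.65% of all 32851 windows of this length. The longer RFX motif, an X-box spelled GTNNCC and, after 3 bases of any kind, GNNAC, lay in 10 member windows (22.2%) against 4.62% of all. The short RFX motif lay in 18 (40% of the member windows) against 12.5%, and it can fall within an X-box. Both strands were searched. A match describes letters in a window, not binding.

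The 14 IFT genes all passed the filter on low values, and the axonemal genes did so in part. Levels per kilobase of transcript, on the linear scale of the normalised values, ran from 19.4 for Ift22 to 324 for Ift46 among the IFT genes. Among axonemal dynein heavy chains, the force-generating subunits, 8 of 13 passed, with levels per kilobase from 1.11 for Dnah12 to 17.8 for Dnah14. Radial spoke genes passed in 4 of 7 cases and Cfap genes in 10 of 22. Foxj1 itself stood at 25.9 per kilobase over all 18 libraries. The 4 members with the highest values in the table were Ift46 at 324, Rfx2 at 134, Ift172 at 98.2 and Cfap20 at 114 per kilobase. Genes that carry cargo in all cilia were thus at higher levels per length than most genes of the motile axoneme, with the longest annotated transcript as the length. Exceptions within the IFT range included Cfap36 at 202, Cfap20 at 114 and Rsph1 at 74.7 per kilobase.

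Just inside the filter lay Rsph10b (mean log2 value 3.60) and Tekt1 (3.62), and just outside it Cfap70 (3.22) and Cfap77 (3.04). The 21 genes under the filter comprised 12 Cfap, 5 Dnah, 3 Rsph genes and 1 tektin, with mean log2 values of 0.02 to 3.22. Among them were Dnah5, the outer arm heavy chain of airway cilia, and Rsph4a and Rsph9 of the radial spoke head. Their log2 differences after Trim71 loss lay between -0.10 and 0.14 with Lin28a intact and between -0.11 and 0.13 without Lin28a. None of the 21 passed the test in a fit of the whole table.

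Foxj1 was higher in every Trim71-null library than in every Trim71-intact one. Its log2 values were 5.80, 5.79, 5.84 and 5.77 in WT-WT and 7.02, 7.05, 7.22 and 7.14 in KO-WT. Without Lin28a they were 5.12, 5.18, 5.42, 4.84 and 5.23 in WT-KO and 6.46, 6.49, 6.23, 6.59 and 6.34 in KO-KO. The 4 genotypes did not overlap, and from high to low they ran KO-WT, KO-KO, WT-WT and WT-KO. Means of neighbours in this order differed by more than the SD within either genotype. Day effects had been removed before deposit, so the spread within genotypes holds no day differences. With Lin28a intact, 1941 of 14988 genes were higher after Trim71 loss without overlap and 2286 lower. Without Lin28a these counts were 907 and 982.

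The Foxj1 log2 difference after Trim71 loss was 1.31 (SE 0.11) with Lin28a intact, a 2.47-fold higher level, and 1.26 (SE 0.10) without Lin28a, a 2.40-fold higher level. Among 14988 genes tested it was the second from the highest with Lin28a intact and the third without Lin28a. Libraries of one clone harvested on the same day differed by 1.26, 1.38 and 1.37 in the 3 pairs with Lin28a intact. The 5 pairs without Lin28a differed by 1.33, 1.31, 0.81, 1.75 and 1.11. Foxj1 transcripts are 61.4% GC, and with the trend of each library with GC content and length removed the differences were 1.19 and 1.28. In bulk RNA, more cells with Foxj1 transcript and more transcript per cell cannot be told apart.

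**Figure D1:**
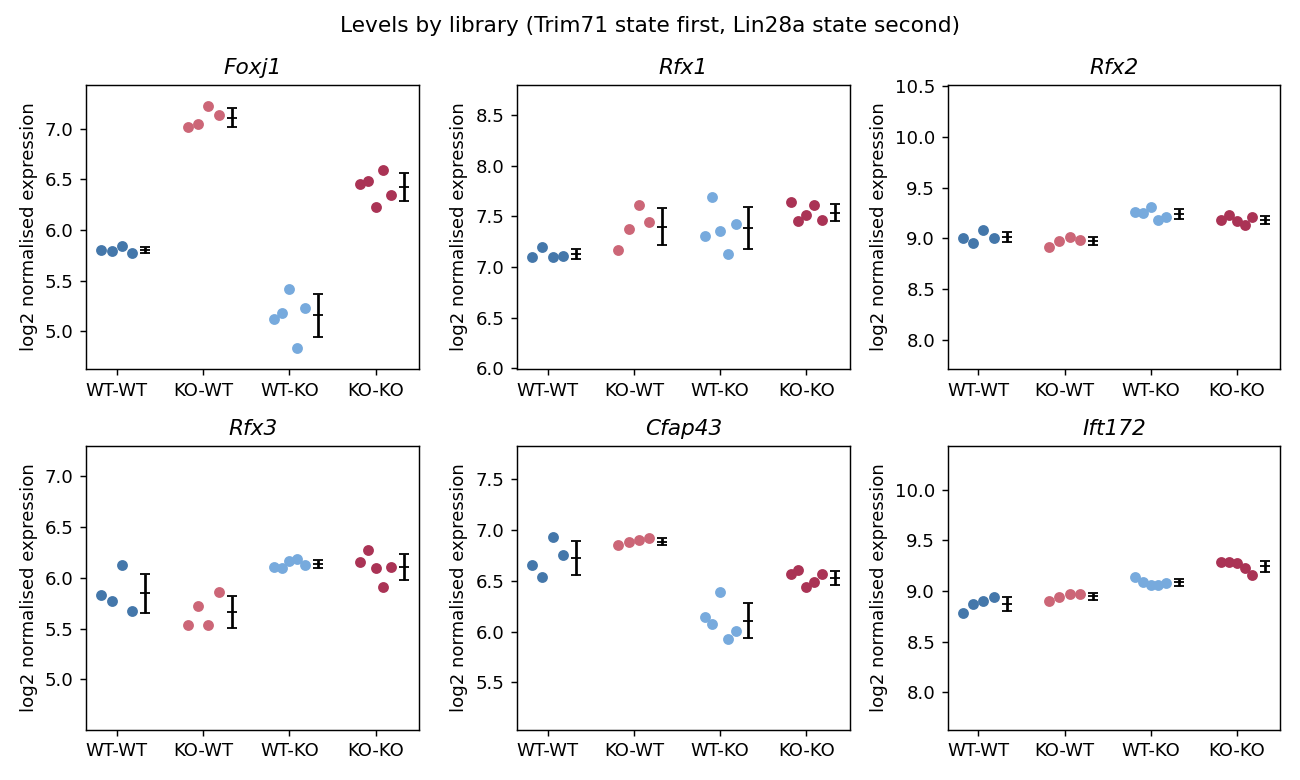
Log2 normalised expression of Foxj1, the 3 RFX factors, Cfap43 and Ift172 in each library by genotype, each panel spanning the same log2 range. Points are libraries and the black marks are the genotype mean with its SD. Foxj1 separates all 4 genotypes, from a mean of 5.16 in WT-KO to 7.11 in KO-WT, while the RFX factors overlap between the Trim71 states.

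RFX factors act with Foxj1 on ciliary promoters, and none of the 3 passed the test in either Trim71 comparison. Rfx1 had log2 values of 7.10, 7.20, 7.10 and 7.11 in WT-WT and 7.17, 7.37, 7.61 and 7.44 in KO-WT. It stood at 7.31, 7.70, 7.36, 7.13 and 7.42 in WT-KO and at 7.64, 7.45, 7.51, 7.61 and 7.47 in KO-KO. The Trim71 states overlapped in both backgrounds, with log2 differences of 0.27 (SE 0.11, limma adjusted p = 0.117) and 0.15 (SE 0.10, limma adjusted p = 0.372). Without KO-WT replicate 1 the first of these was 0.36 (limma adjusted p = 0.0429) and without WT-KO replicate 2 it was 0.33 (limma adjusted p = 0.0238). Without WT-KO replicate 2 the second was 0.27 (limma adjusted p = 0.0418). Over both backgrounds the mean difference of Rfx1 was 0.21 (SE 0.07, limma adjusted p = 0.0544), which became 0.30 (limma adjusted p = 0.00285) without WT-KO replicate 2 and 0.25 (limma adjusted p = 0.0159) without KO-WT replicate 1.

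Rfx2, the most abundant RFX factor per length, spanned 8.96 to 9.08 in WT-WT and 8.91 to 9.01 in KO-WT. It spanned 9.18 to 9.31 in WT-KO and 9.13 to 9.23 in KO-KO. Its Trim71 differences were -0.04 (SE 0.05) and -0.06 (SE 0.04). Rfx3, which is needed for cilia of the node, differed by -0.19 (SE 0.11) and -0.03 (SE 0.09). The sign of the Rfx3 differences was not stable, since within clones 1 and 1-4 they were 0.14 and 0.01.

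With Lin28a intact, none of the 46 genes passed the test after Trim71 loss (limma with Benjamini-Hochberg adjustment over 14988 genes, adjusted p under 0.05), whereas 11.2% of all genes tested did (4.74% higher and 6.43% lower). At an unadjusted p under 0.05 stood 9 of the 46, 4 of them higher and 5 lower. Of all 14988 genes 4376 did, 1922 higher and 2454 lower. The median log2 difference of the 46 was 0.01, and that of all genes was -0.005. The most positive difference was that of Rfx1 and the most negative that of Ift74 (-0.38, SE 0.13), a core IFT-B subunit. Their transcripts are 60.8% and 41.6% GC, and differences in this comparison rose with GC content over all genes (Spearman 0.50). The 95% intervals of the 46 reached from -0.66, for Ift74, to 0.51, for Rfx1.

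The count of 0 became 1 without WT-KO replicate 2, WT-KO replicate 3 or KO-WT replicate 2, and 2 without KO-WT replicate 1 or WT-KO replicate 4. In these fits 6.4% to 13.2% of all genes passed. The count was 1 with the GC and length trends removed, where 7.71% of all genes passed. Without the harvest day in the model it was 9, of which 4 were higher and 5 lower, and 28.1% of all genes passed.

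Without Lin28a, 2 of the 46 genes passed the test after Trim71 loss, both higher, while 8.38% of all genes passed (4.26% higher and 4.12% lower). They were Cfap43, a protein of the axoneme of motile cilia and the sperm flagellum, and Ift172, a peripheral subunit of IFT-B. At an unadjusted p under 0.05 stood 12 of the 46, of which 8 were higher and 4 lower. Of all 14988 genes 3413 did, 1611 higher and 1802 lower. The median log2 difference was 0.05, against -0.009 over all genes. The 95% intervals of the 46 reached from -0.54, for Dnah12, to 0.61, for Cfap43.

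Cfap43 had log2 values of 6.14, 6.07, 6.39, 5.93 and 6.01 in WT-KO and 6.57, 6.61, 6.44, 6.48 and 6.56 in KO-KO. The Trim71-null libraries were all higher, and the log2 difference was 0.42 (SE 0.09, a 1.34-fold change, limma adjusted p = 0.00746). Same-day pairs of libraries differed by 0.43, 0.53, 0.05, 0.55 and 0.55. With Lin28a intact, Cfap43 stood at 6.66, 6.54, 6.94 and 6.76 in WT-WT and 6.85, 6.88, 6.90 and 6.92 in KO-WT. These groups overlapped, and the difference of 0.16 (SE 0.10, limma adjusted p = 0.305) did not pass. The difference between the 2 Trim71 effects on Cfap43, 0.26 (SE 0.14), did not pass either (limma adjusted p = 0.379). The call without Lin28a was lost within clones E3 and C1 (0.38, limma adjusted p = 0.262) and on days 3, 4 and 5 alone (0.38, limma adjusted p = 0.172), and it held without any single library.

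Ift172 stood at 9.14, 9.09, 9.06, 9.05 and 9.08 in WT-KO and at 9.28, 9.28, 9.28, 9.23 and 9.16 in KO-KO. The groups did not overlap, and the log2 difference was 0.16 (SE 0.04, limma adjusted p = 0.0295). With Lin28a intact the values were 8.78, 8.87, 8.90 and 8.94 in WT-WT and 8.90, 8.94, 8.97 and 8.97 in KO-WT. Those groups overlapped, with a difference of 0.07 (SE 0.05). The call was lost without any one of 6 libraries, KO-KO replicates 1, 2 and 3 and WT-KO replicates 3, 4 and 5, with limma adjusted p-values of 0.0572 to 0.0995, and within either clone pair (0.190 and 0.478) or on days 3, 4 and 5 alone (0.169). The count of 2 became 1 without KO-KO replicate 1, KO-KO replicate 3, WT-KO replicate 3 or WT-KO replicate 5. It became 5 without WT-KO replicate 2, where 7.37% of all genes passed. With the GC and length trends removed it was 5, beside 11.2% of all genes. Without the harvest day in the model it was 9, beside 17.5% of all genes.

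**Figure D2:**
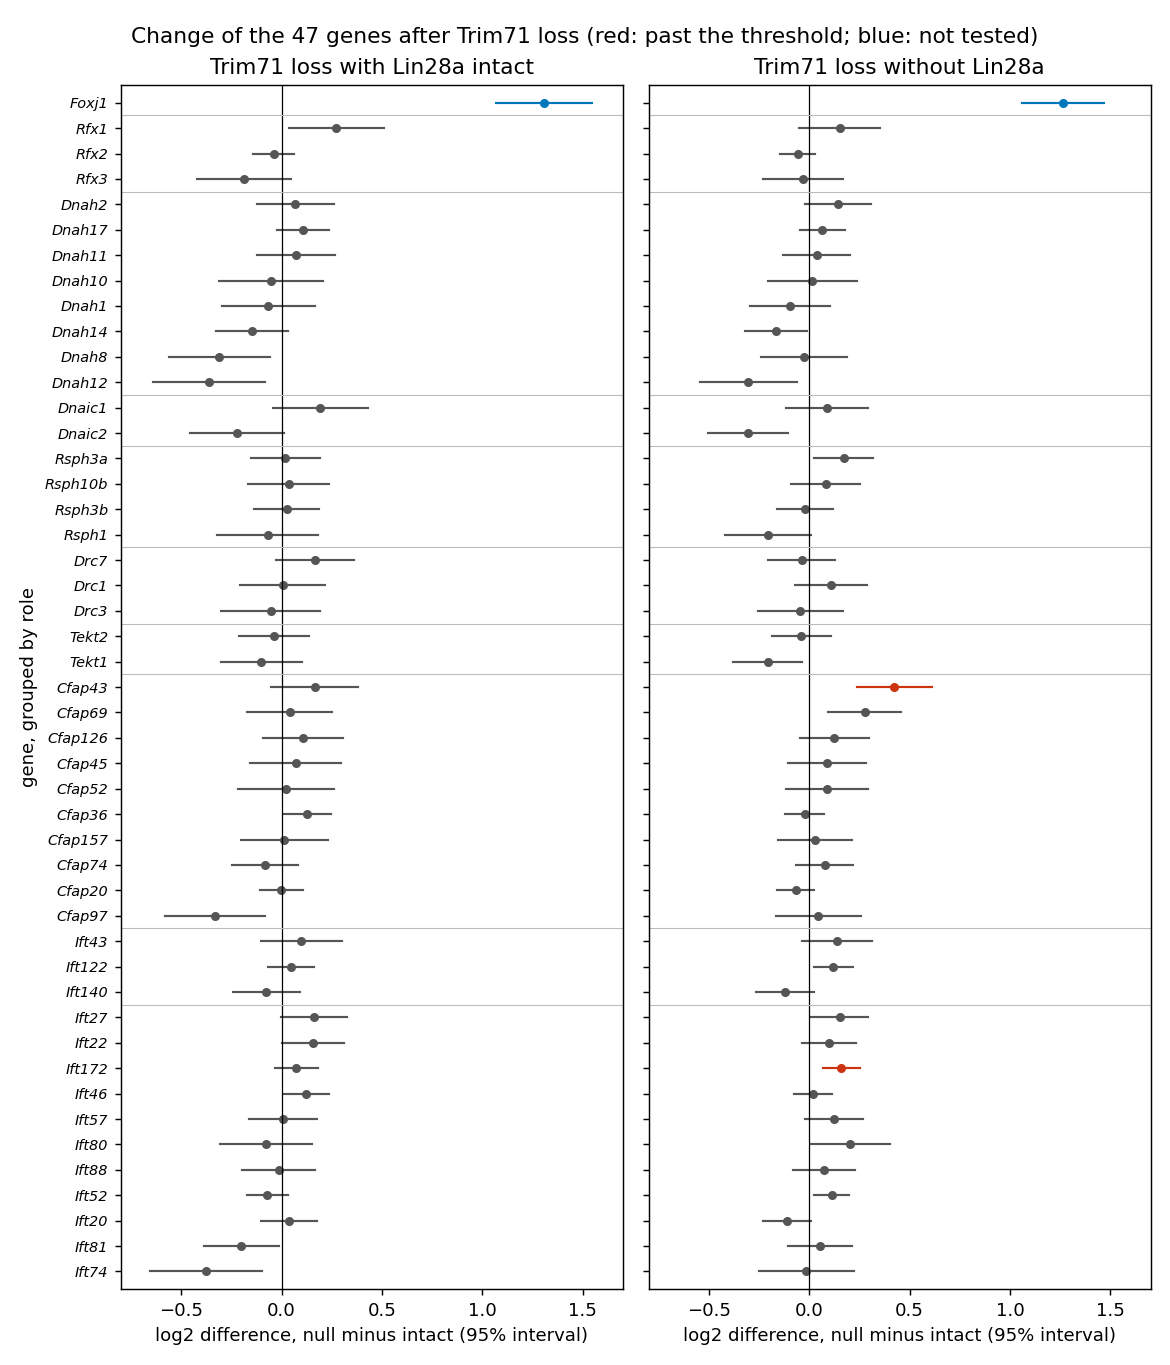
Log2 difference between Trim71-null and Trim71-intact libraries for all 47 genes, with Lin28a intact on the left and without Lin28a on the right. Points are fitted differences, bars their 95% intervals, and grey lines part the roles. Foxj1, in blue, lies at 1.31 and 1.26 and was not tested. The intervals of the other genes end at 0.51 or lower on the left and at 0.61 or lower on the right.

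Averaged over both Lin28a states, the mean Trim71 effect passed for 5 of the 46 genes, while 18.5% of all genes passed (8.52% higher and 9.98% lower). Cfap43 (0.29, SE 0.07, limma adjusted p = 0.00702), Ift27 (0.16, SE 0.05, limma adjusted p = 0.0418) and Ift172 (0.12, SE 0.03, limma adjusted p = 0.0213) were higher. Dnaic2, an intermediate chain of the outer dynein arm, was lower by this test (-0.26, SE 0.07, limma adjusted p = 0.0189). So was Dnah12, a heavy chain of the inner arm (-0.33, SE 0.09, limma adjusted p = 0.0151). The mean effect on Foxj1 was 1.28 (SE 0.07). Motile-axoneme genes thus included members on either side, Cfap43 above zero and a pair of dynein chains below it.

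Ift27, a small GTPase of IFT-B, stood at 6.67, 6.74, 6.59 and 6.54 in WT-WT, at 6.86, 6.67, 6.80 and 6.86 in KO-WT, at 6.71, 6.70, 6.75, 6.71 and 6.90 in WT-KO and at 6.92, 6.90, 6.94, 6.99 and 6.80 in KO-KO. Dnaic2 stood at 6.23, 5.99, 6.10 and 6.13 in WT-WT, at 5.87, 5.96, 5.98 and 5.76 in KO-WT, at 6.03, 5.82, 6.23, 5.96 and 6.18 in WT-KO and at 5.63, 5.99, 5.61, 5.74 and 5.72 in KO-KO. Dnah12 stood at 3.87, 3.79, 3.84 and 3.83 in WT-WT, at 3.56, 3.57, 3.32 and 3.43 in KO-WT, at 4.18, 4.02, 3.73, 4.10 and 3.74 in WT-KO and at 3.38, 3.49, 3.82, 3.64 and 3.91 in KO-KO. For Ift27 the Trim71 states overlapped in both backgrounds, and for Dnaic2 and Dnah12 they overlapped only without Lin28a. The count of 5 became 1 without KO-KO replicate 1 and 2 without KO-WT replicate 4. Of all genes 13.9% and 14.8% passed in these fits. Ift27 lost its call without any one of 13 of the 18 libraries (limma adjusted p up to 0.109). Dnaic2 and Ift172 lost theirs without KO-KO replicate 1 (limma adjusted p = 0.0589 and 0.0621) or KO-WT replicate 4 (0.0527 and 0.0523), and Dnah12 without KO-KO replicate 1 (0.0524). With the GC and length trends removed, Dnah12 stood at -0.23 (limma adjusted p = 0.0800) and Ift27 at 0.12 (limma adjusted p = 0.0846).

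The difference between the Trim71 effects in the 2 Lin28a states passed the limma test for none of the 46 genes and for 0.02% of all genes. At an unadjusted p under 0.05 stood 3 of the 46, beside 2256 of all 14988 genes. The largest estimate of these 3 was that of Cfap97, 0.38 (SE 0.15, limma adjusted p = 0.292). Without the harvest day in the model 1 of the 46 passed, beside 4.49% of all genes. The Trim71 differences had the same sign in both backgrounds for 35 of the 46 genes (76.1%, of which 21 were higher and 14 lower in both), and for 61.8% of all genes. The corresponding Foxj1 estimate was -0.04 (SE 0.15). Between same-day libraries, the median difference of the 46 genes lay between -0.02 and 0.08 in each of the 8 Trim71 pairs, in which Foxj1 differed by 0.81 to 1.75.

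By role, the median Trim71 differences lay between -0.12 and 0.12. The 8 axonemal dynein heavy chains had median Trim71 differences of -0.06 with Lin28a intact and -0.005 without it, and none passed. The 4 radial spoke genes had medians of 0.02 and 0.03, the 3 genes of the nexin-dynein regulatory complex 0.005 and -0.04, and the tektins Tekt1 and Tekt2 -0.07 and -0.12. The 10 Cfap genes had medians of 0.03 and 0.08, with Cfap43 the only one that passed, without Lin28a. Rsph3a and Rsph3b are close copies, and reads could have been split between them. Among the 14 IFT genes the medians were 0.02 and 0.10, and Ift172 alone passed, without Lin28a.

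With Lin28a intact, the 13 members with a mean below 5 had a median SE of 0.0950, against 0.0988 for all genes below that level. The 33 members at or above it had a median SE of 0.0879, against 0.0732 for all such genes. At that level the members thus had a larger median SE than the genes whose shares of calls stand beside theirs. Over the 46, the 95% interval reached a median of 0.20 to either side of the estimate with Lin28a intact and 0.17 without it.

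Other genes of the ciliary pathway, taken from lists written with earlier results of these data known, were also followed. Of 176 listed symbols, older and newer synonyms included, 119 passed the filter. With Lin28a intact 11 of these passed the test (5 higher and 6 lower), and without Lin28a 6 did (4 higher and 2 lower). The median differences were -0.02 and 0.01. The shares, 9.24% and 5.04%, stand beside the 11.2% and 8.38% of all genes.

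Among 16 multiciliation regulators, none passed the test as higher by limma, beside 4.74% and 4.26% of all genes. Differences were positive for 8 of them with Lin28a intact and for 10 without it. Myb, a transcription factor of early multiciliated differentiation and of proliferating progenitors, fell by 0.43 (SE 0.13, limma adjusted p = 0.0414) with Lin28a intact. Without Lin28a it fell by 0.64 (SE 0.11, limma adjusted p = 0.00171). Plk4, the kinase of centriole duplication, fell by 0.30 with Lin28a intact (SE 0.07, limma adjusted p = 0.0196). Trp73, which acts upstream of Foxj1 in multiciliated cells, had differences of 0.09 (SE 0.11) and 0.29 (SE 0.09, limma adjusted p = 0.066), neither of which passed.

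Of 20 genes for dynein arm assembly and docking, Ruvbl2, an ATPase that also serves chromatin remodelling, passed with Lin28a intact (0.22, SE 0.04, limma adjusted p = 0.00543). None passed without Lin28a by limma, and 4 had an unadjusted p under 0.05, beside 3413 of all 14988 genes. Of 30 further axoneme and central apparatus genes, Tcte1, a subunit of the nexin-dynein regulatory complex, was higher in both backgrounds. Its differences were 0.32 (SE 0.10, limma adjusted p = 0.0456) and 0.43 (SE 0.08, limma adjusted p = 0.00487). Wdr78, an axonemal dynein intermediate chain, was higher with Lin28a intact by 0.28 (SE 0.08), and Ccdc170 fell by 0.37 (SE 0.11).

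Of 22 other IFT and ciliary motor genes, Ttc30b (0.26, SE 0.08) of IFT-B and Wdr34 (0.25, SE 0.06) of the retrograde dynein motor were higher with Lin28a intact. Without Lin28a, Wdr35 (0.29, SE 0.07) of IFT-A, Wdr60 (0.27, SE 0.07) of the retrograde motor and Kif3b (0.23, SE 0.05) of the anterograde kinesin were higher. The related kinesin Kif3c fell by 0.26 (SE 0.05). Of 33 BBSome and transition zone genes, Iqcb1, Ofd1 and Cc2d2a fell with Lin28a intact, by 0.37, 0.36 and 0.32. None passed without Lin28a by limma, where 4 had an unadjusted p under 0.05, beside 3413 of all 14988 genes.

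Leaving out single libraries took the count of 11 with Lin28a intact to between 1 and 7 for some libraries. These were WT-WT replicates 1, 3 and 4, KO-WT replicates 2, 3 and 4, WT-KO replicate 1 and KO-KO replicates 1 and 5. Without any one of them, 3.52% to 9.52% of all genes passed. Ruvbl2 with Lin28a intact, and Tcte1, Myb, Kif3b and Kif3c without it, kept their calls without any one library, and each of the 12 other calls was lost without 1 to 13 of the 18 libraries. With the GC and length trends removed 5 passed with Lin28a intact, of which 4 were higher and 1 lower, beside 7.71% of all genes.

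**Figure D3:**
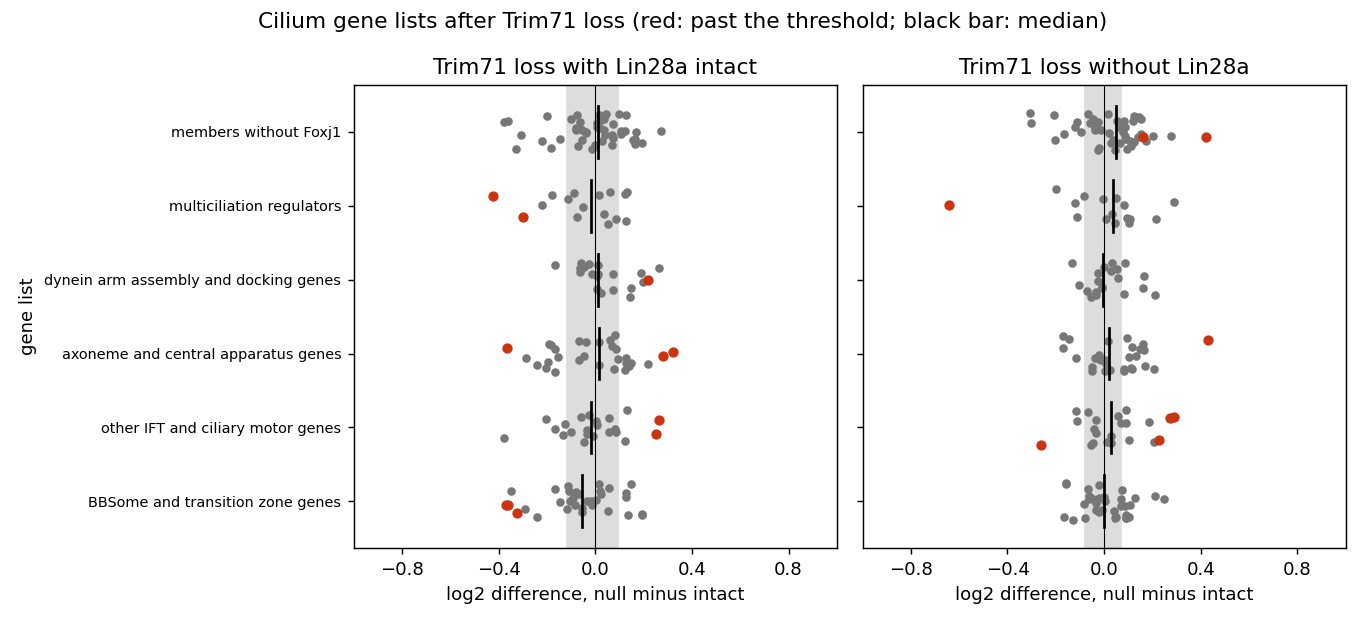
Log2 difference between Trim71-null and Trim71-intact libraries for the 46 members without Foxj1 and for 5 lists of further cilium genes, with Lin28a intact on the left and without Lin28a on the right. Each point is a gene, red points passed the test, black bars are list medians and the grey band runs from the lower to the upper quartile of all genes tested. The medians of all lists lie between -0.06 and 0.05.

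Between Lin28a-null and Lin28a-intact libraries, 4 of 8 axonemal dynein heavy chains and 2 of 3 RFX factors passed the test as higher in each background. Of the radial spoke genes, 3 of 4 passed as lower with Trim71 intact and 2 of 4 without it. Rsph1 had positive differences, 0.25 with Trim71 intact and 0.11 without it, and did not pass in either background. Cfap43 and Dnaic1 passed as lower in both. With Trim71 intact 21 of the 46 genes passed, 11 higher and 10 lower, while 42.4% of all genes passed (20.3% higher and 22% lower). Without Trim71 21 passed as well, 11 higher and 10 lower, against 42.8% of all genes (20.8% higher and 22% lower). Of these, 16 passed in both backgrounds (76.2% of each list), 10 higher and 6 lower in both. The shares are near those of all genes. Foxj1 was lower without Lin28a by 0.64 (SE 0.10) with Trim71 intact and by 0.69 (SE 0.10) without Trim71.

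Dnah10, an inner arm heavy chain, stood at 6.62, 6.46, 6.71 and 6.82 in WT-WT and at 7.23, 7.31, 7.43, 6.99 and 7.31 in WT-KO. It stood at 6.38, 6.73, 6.82 and 6.46 in KO-WT and at 7.33, 7.44, 7.15, 7.26 and 7.18 in KO-KO. Neither pair of groups overlapped, and the log2 differences were 0.60 (SE 0.11, limma adjusted p = 0.000524) and 0.67 (SE 0.11, limma adjusted p = 0.000197). Of all 14988 genes, 3009 and 2974 were higher without overlap in these comparisons. Dnah1 and Dnah2, also of the inner arm, were higher by 0.52 and 0.42 with Trim71 intact and by 0.49 each without it. Dnah11, an outer arm chain, was higher by 0.34 and 0.31. Thus 4 of the 8 heavy chains kept by the filter passed the test as higher in each background, beside 20.3% and 20.8% of all genes. None passed it as lower by limma, although 3 had a negative difference with Trim71 intact and 2 without it. Of these 2, 1 had an unadjusted p under 0.05, as had 3868 lower ones among all 14988 genes.

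Cfap45, a protein inside the axonemal microtubules, was higher by 0.39 and 0.41 in the same comparison. Rfx2 was higher by 0.23 (SE 0.04) and 0.21 (SE 0.04), and Rfx3 by 0.29 (SE 0.10) and 0.45 (SE 0.10). Among IFT genes, Ift140 of IFT-A was higher by 0.38 and 0.34, Ift172 by 0.21 and 0.30 and Ift52 by 0.13 and 0.31. All of these passed in both backgrounds.

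In the other direction, Cfap43 fell by 0.61 (SE 0.10, limma adjusted p = 9.39e-05) with Trim71 intact and by 0.36 (SE 0.10, limma adjusted p = 0.00685) without it. Dnaic1, an intermediate chain of the outer dynein arm, stood at 5.05, 5.11, 5.12 and 5.13 in WT-WT and at 4.63, 4.60, 4.93, 4.41 and 4.45 in WT-KO. It stood at 5.28, 5.12, 5.45 and 5.32 in KO-WT and at 4.72, 4.71, 4.53, 4.72 and 4.79 in KO-KO. The groups did not overlap, and Dnaic1 fell by 0.50 (SE 0.10) and 0.60 (SE 0.10). Lower without overlap in these comparisons were 3102 and 3121 of all 14988 genes. Cfap97 fell by 0.45 (SE 0.11) and Cfap69, a flagellar protein, by 0.38 (SE 0.09) with Trim71 intact. Without Trim71 their differences were -0.08 and -0.14 and did not pass, and neither passed the interaction test (limma adjusted p = 0.292 and 0.401). Ift22 and Rsph10b fell in both backgrounds, by 0.26 and 0.35 with Trim71 intact and by 0.32 and 0.30 without it. Ift43 and Rsph3b passed as lower in both as well. From Lin28a-intact to Lin28a-null libraries, mean log2 values of Ift43 ran from 6.46 to 6.18 with Trim71 intact and from 6.56 to 6.32 without it. Those of Rsph3b ran from 3.81 to 3.56 and from 3.84 to 3.53.

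Within clones 1 and 1-4 alone 12 and 6 of the 46 passed in these comparisons, and within E3 and C1 alone 3 and 11. Of all genes 29.2% and 15.3% passed within clones 1 and 1-4, and 15.5% and 24% within E3 and C1. The differences of Dnah10, Dnah1, Dnah2, Dnaic1 and Cfap43 kept their direction in both clone pairs. With Trim71 intact, Cfap45 and Cfap69 lost their calls within either clone pair, and Dnah2, Dnaic1 and Cfap97 within E3 and C1, with limma adjusted p-values of 0.0636 to 0.0943. Without Trim71, Cfap43 and Rsph10b lost theirs within either clone pair (limma adjusted p = 0.0711 to 0.193), Ift22 within E3 and C1 (0.0727), and Dnah2 (0.0566) and Rfx3 (0.264) within 1 and 1-4. On days 3, 4 and 5 alone Rfx3 (0.0719) and Rsph10b (0.0744) lost theirs as well.

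**Figure D4:**
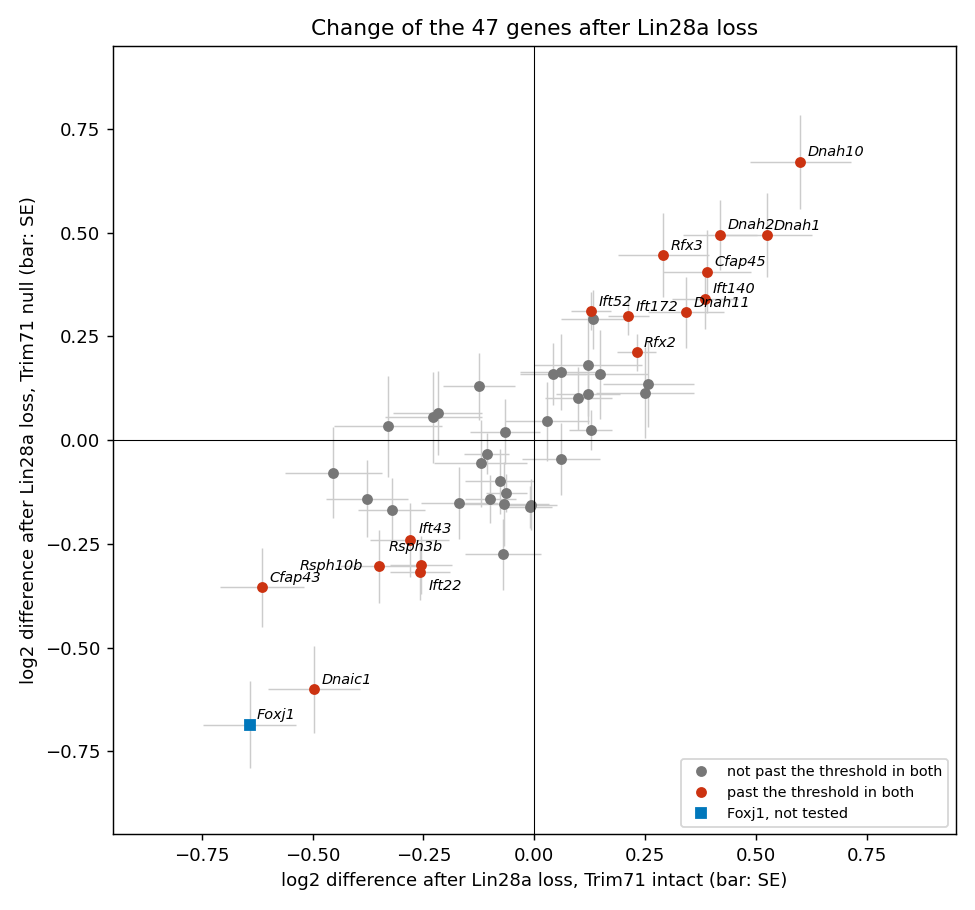
Log2 difference between Lin28a-null and Lin28a-intact libraries for the 47 genes, with Trim71 intact on the x axis and without Trim71 on the y axis. Bars are standard errors and red points, labelled, passed in both. The 10 genes higher in both lie in the upper right, led by Dnah10 at 0.60 and 0.67, and the 6 lower in both lie in the lower left, among them Dnaic1 at -0.50 and -0.60 and Ift22 at -0.26 and -0.32. Foxj1, in blue, was not tested.

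Markers of cells that carry motile cilia were read beside Foxj1. Of 11 multiciliated cell markers other than Foxj1, 5 were in the table and 4 (Ccno, Tppp3, Ccdc39 and Hydin) passed the filter. None passed the test after Trim71 loss in either background by limma. Their summed level, as log2 of the sum over the markers in the table, was 7.60 to 7.80 in WT-WT and 7.48 to 7.60 in KO-WT. It was 7.55 to 7.76 in WT-KO and 7.55 to 7.76 in KO-KO. Within each Lin28a state the ranges overlapped, but with Lin28a intact only between 7.596, the lowest WT-WT library, and 7.602, the highest KO-WT library. In that comparison Ccno, Ccdc39 and Hydin differed by -0.22, -0.21 and -0.19 and Tppp3 by 0.08. Fam183b stayed under the filter with a mean of 1.27. Mcidas, Gmnc, Deup1, Sntn, Dynlrb2 and 1110017D15Rik were not in the table under these symbols.

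Of 8 node markers 6 were in the table and Chrd and Dand5 passed the filter, neither with a call after Trim71 loss. The summed level of the node markers was 6.07 to 6.13 in WT-WT and 6.19 to 6.24 in KO-WT, and 6.01 to 6.07 in WT-KO and 6.06 to 6.12 in KO-KO. It was thus higher in all KO-WT than in all WT-WT libraries, and its part in the Foxj1 difference was not tested. Brachyury (T) and Foxa2 stayed under the filter, with means of 2.42 and 1.45. Spermatid markers Acrv1 and Spaca1 had means of 0.43 and 0.14. Of the ependymal and choroid plexus markers, Slc4a5 fell by 0.48 with Lin28a intact (limma adjusted p = 0.0418) and by 0.56 without it (limma adjusted p = 0.01), and Enpp2 did not pass. The summed level of this list was 7.16 to 7.53 in WT-WT, 6.88 to 7.15 in KO-WT, 6.81 to 7.28 in WT-KO and 6.40 to 6.70 in KO-KO, lower in the Trim71-null libraries of each Lin28a state.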

How the data were processed

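Values are log2 normalised expression as deposited by the authors in 1 table of 19 libraries (the base was inferred from the values). CASAVA 1.8, STAR and DESeq2 are named, per the submitters' processing notes, without a role. The build and the counting rules are not given in the sources used here. No gene held a difference between harvest days (largest day term 1.7e-08), so day effects had been removed before deposit. Depth is unknown, and the values of a library on the linear scale summed to 7297919 to 7677445.

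Genes at log2 of 10 or more in at least 4 of 18 libraries were fitted with limma 3.58.1 in R 4.3.3 (genotype and day, trended variance, 10 residual degrees of freedom). P-values were adjusted by Benjamini-Hochberg over 14988 genes. Libraries of one day are the pairs of this design, and the day is stated in the labels. The procedure was also run on simulated data with independent noise and shifts in KO-WT larger than those of the members other than Foxj1. That run therefore does not show how often differences of the members' size would be found. Named were Foxj1, the RFX factors, members that passed after Trim71 loss, up to 4 higher and 4 lower members by size in each Lin28a comparison, the 4 members at the highest level, those nearest the filter and further pathway genes that passed. Ift74, Dnah11, Ift140, Ift52, Ift43, Rsph1, Rsph3b, Trp73 and, in single comparisons, a few other members were named after their values were seen. The members and lists were chosen with earlier results of these data known. Motifs were searched in RefSeq promoters. Alternatives were no day term, other scalings and filters, GC and length correction, subsets of clones and days, and leaving out each library.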

Additional observations from a re-analysis of the deposited data

Results flagged for a closer look

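In 12 of 188 sets of one gene in one genotype, the highest or the lowest library stood apart from the others by more than the 95% limit of Dixon's gap test. Chance marks about 1 in 20 such sets. Libraries that stood high were Cfap126 in WT-WT replicate 1 (log2 value 4.76, nearest other 4.60), Ift20 in KO-WT replicate 1 (8.57, nearest 8.36), Ift27 in WT-KO replicate 5 (6.90, nearest 6.75), Ift43 in WT-KO replicate 4 (6.33, nearest 6.17), Rfx1 in WT-WT replicate 2 (7.20, nearest 7.11) and Rsph1 in KO-KO replicate 4 (6.70, nearest 6.43). Libraries that stood low were Cfap97 in KO-WT replicate 3 (6.99, nearest 7.36), Dnah1 in WT-WT replicate 2 (5.15, nearest 5.29), Drc3 in KO-KO replicate 1 (5.56, nearest 5.87), Rsph10b in KO-WT replicate 2 (3.67, nearest 3.84), Rsph3a in KO-KO replicate 3 (3.91, nearest 4.03) and Tekt2 in WT-WT replicate 3 (4.11, nearest 4.25). No Foxj1 library was among them.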

How the results depend on the processing

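Depth is unknown, so no limit from counting can be given, and with 10 residual degrees of freedom the spread between libraries set what could be seen. The Foxj1 differences after Trim71 loss stayed between 1.19 and 1.36 with Lin28a intact and between 1.15 and 1.35 without it, over the alternatives run and over leaving out each library.

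Libraries of one harvest day form the pairs of this design. Without the replicate block for day, 9 of the 46 genes passed after Trim71 loss with Lin28a intact and 9 without Lin28a. The mean Trim71 effect passed for 12 and the interaction for 1. Of all genes 28.1%, 17.5%, 32.2% and 4.49% passed in that fit. In it 26 and 17 further cilium genes passed with and without Lin28a. Since day effects were already absent from the values, that fit takes as residual the degrees of freedom of the days. With KO-WT replicate 5 also added, chosen after seeing the data, the counts were 11, 10, 15, 1, 35 and 19. Beside those of the 46, 34.4%, 19.7%, 36.2% and 8.63% of all genes passed. The Lin28a counts were 26 and 24 without the block, beside 53.2% and 53.4% of all genes.

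With GC and length trends removed, 1 and 5 of the 46 genes and, with Lin28a intact, 5 further genes passed. Of all genes in that fit 7.71% and 11.2% passed. Within clones E3 and C1 the counts were 0 without Lin28a, 0 for the mean effect, 3 and 11 for Lin28a loss, and 0 and 1 for further genes. Beside those of the 46, 1.02%, 2.7%, 15.5% and 24% of all genes passed. Within clones 1 and 1-4 the counts were 1, 2, 12, 6, 0 and 0. There the shares of all genes beside the 46 were 1.91%, 9.53%, 29.2% and 15.3%. On days 3, 4 and 5 alone the counts were 0 without Lin28a, 2 for the mean effect, and 2 and 0 for further genes. Of all genes 1.45% passed there without Lin28a and 8.71% for the mean effect. With only the 2 genotypes compared the counts were 1 without Lin28a, beside 5.3% of all genes, and 0 for further genes with Lin28a intact, beside 0.2%. With no filter 6 further genes passed with Lin28a intact, beside 6.27% of all genes. These subsets hold fewer libraries. The Rfx3 differences reversed: to 0.049 with Lin28a intact and 0.0043 for the mean effect with GC trends removed, to 0.14, 0.013 and 0.077 within clones 1 and 1-4, and to 0.036 without Lin28a when KO-KO replicate 4 was left out (-0.092 to 0.036 over the libraries left out). The cause was not tested.

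Leaving out each library in turn gave 0 to 2 of the 46 genes with Lin28a intact, 1 to 5 without Lin28a and 1 to 7 for the mean effect. It gave 0 for the interaction, 16 to 23 and 18 to 21 for Lin28a loss with and without Trim71, and 1 to 13 and 5 to 9 further genes. Scalings by the 75th percentile or a trimmed mean and the other variance settings moved none of these counts by more than 1.5 times. Over the libraries left out, 3.52% to 13.2% of all genes passed after Trim71 loss with Lin28a intact and 4.51% to 9.29% without it. For the mean effect it was 13.9% to 21.4%. For Lin28a loss it was 35.9% to 43.7% with Trim71 intact and 35.9% to 44% without Trim71. The short RFX motif in place of the X-box raised the share of member promoters from 22.2% to 40%.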

Other observations

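The genes beside Foxj1 in the RefSeq gene order had Trim71 differences between -0.25 and 0.27. Exoc7 differed by 0.09 after Trim71 loss with Lin28a intact and by 0.11 without Lin28a, and Srp68 by 0.05 and -0.02, with no call in limma. Rnf157 stood at -0.10 and, past the threshold, at -0.24 (limma adjusted p = 0.0278). Ubald2 rose with Lin28a intact (0.27, limma adjusted p = 0.00901) and fell by 0.25 without it (limma adjusted p = 0.0044). Galr2 stayed under the filter.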
